A study of Mus musculus with 8 samples.

Results

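The enzymes that hydroxylate and crosslink collagen were followed in the developing mouse trachea through 10 genes, taken by name from 23478 gene symbols in each of 2 count tables. They are the lysyl oxidases Lox, Loxl1, Loxl2, Loxl3 and Loxl4, the lysyl hydroxylases Plod1, Plod2 and Plod3, and the prolyl 4-hydroxylase alpha subunits P4ha1 and P4ha2. All 10 passed the low-count filter in both tables.

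RNA was sequenced from mouse embryos at E13.5, a stage of mid gestation. The first table holds cells sorted from the trachea, called chondroblasts by the submitters, from 2 Bmp4 mutant libraries (Bmp4flox/flox, γSMAeGFP, with Cre) and 3 control libraries without Cre (Bmp4flox/flox, γSMAeGFP). Sorting kept cells negative for Epcam, an epithelial surface protein, and for γSMAeGFP, a GFP reporter of the smooth muscle form of gamma actin. Every group thus carried the floxed Bmp4 alleles and the reporter. The second table holds whole trachea from 1 Wls mutant library (Wls flox/flox, ShhCre+) and 2 control libraries (Wls flox/flox). ShhCre deletes in the airway epithelium, where Wls is needed to secrete Wnt ligands, whereas Bmp4 encodes a secreted growth factor. Whether the libraries within a group stem from different embryos is not stated, so a p-value here measures the spread between libraries and no more, and that spread may be technical.

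Collagen chains are modified inside the endoplasmic reticulum before they fold. Prolyl 4-hydroxylases hydroxylate proline, which the triple helix needs to be stable at body temperature, and lysyl hydroxylases hydroxylate lysine, which sets the chemistry of later crosslinks. Outside the cell, procollagen proteinases trim the chain ends and lysyl oxidases oxidise lysine and hydroxylysine, which then crosslink collagen and elastin fibres. Cartilage, the perichondrium around it and the smooth muscle of the airway all build such matrix.

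The libraries differed in ways that touch the values of the enzymes. The Bmp4 mutant libraries held 12964287 and 15462780 counts against 48876948 to 55492747 in their controls, and the tracheal libraries held 24596836 to 31399982. Genes with almost no counts in the controls gave 14.6 and 13.1 counts per kb of exon in the Bmp4 mutants, against 0.0980 to 0.117 in the controls. This background made up an estimated 11.2% and 8.39% of the counts in the mutants. Chondroblast results on the enzymes are therefore given for the deposited counts and after the expected background was subtracted, on genes above 2 times the background. Library sizes and scaling factors were computed anew on the subtracted counts. Log2 fold changes after subtraction thus reflect this rescaling as well as the removed counts. Levels in CPM printed after subtraction keep the scaling of the deposited counts. Bmp4 stood at 24.1 and 32.2 CPM (counts scaled by library size) in the mutants, against 124, 99.2 and 121 CPM in controls. Wls stood at 65.8 CPM in the mutant trachea and at 153 and 146 CPM in the controls.

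Markers of cell types moved with the groups as well. The summed level of 9 cartilage markers was 492 and 1215 CPM in the Bmp4 mutants and 2271 to 4948 CPM in the controls, and 604 CPM in the Wls mutant against 1570 and 1292 CPM. Of these, Matn1 was at 0 in controls 1 and 2 of the chondroblasts, whereas Col2a1 and Sox9 were abundant. Sums of 7 fibroblast and perichondrium markers were 1885 and 3084 CPM in the Bmp4 mutants and 1148 to 1907 CPM in the controls, so cells sorted as chondroblasts also carried fibroblast transcripts. Sums of 8 smooth muscle markers were 1530 and 235 CPM against 128 to 164 CPM, and 2734 CPM in the Wls mutant trachea against 1986 and 1650 CPM. In the chondroblasts, sums in the Bmp4 mutants also exceeded those in the controls for 8 epithelial markers (127 and 72.5 against 31.1 to 49.2 CPM) and 6 endothelial markers (171 and 121 against 29.0 to 89.9 CPM). The same held for 6 leukocyte markers (186 and 172 against 108 to 119 CPM) and 6 neural markers (567 and 641 against 318 to 513 CPM). All these sums still hold the background, which was far greater in the Bmp4 mutants, and its part in them was not computed. Single markers did not all follow their list. Mean levels in the Bmp4 mutants against their controls were 16.2 and 16.3 CPM for Krt18, 1.35 and 6.32 CPM for Nkx2-1, and 25.3 and 44.4 CPM for the neural marker Sox10. Of the cartilage markers, Matn1 (3.50 and 0.0554 CPM), Acan (14.6 and 10.97 CPM) and Hapln1 (12.8 and 8.32 CPM) had higher means in the mutants. The libraries of the 2 groups overlapped for Acan and Hapln1. Sox9, Col2a1, Col9a1, Col9a2, Col11a1 and Snorc had lower means in the mutants. All these means hold the background too. In the trachea epithelial markers summed to 742 CPM in the mutant against 589 and 493 CPM, and endothelial markers to 291 CPM against 366 and 410 CPM. The epithelial list was split there. Krt5, Krt19 and Trp63 lay below both controls, with log2 fold changes of -1.34, -0.63 and -0.51. Epcam, Cdh1, Krt8, Krt18 and Nkx2-1 lay above both. Erythroid markers summed to 19516 CPM in Bmp4 mutant 1 and to 327 CPM in mutant 2, against 29.6 to 2540 CPM in the controls. The part of these shifts in the results on the enzymes was not tested, and in such bulk samples fewer cells of a type and less RNA per cell cannot be told apart.

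In control libraries the enzymes spanned a wide range of levels, compared here in CPM per kb of exon. In chondroblasts, P4ha1 (44.4 ± 3.18, SD, n = 3) and Lox (43.7 ± 15.0) stood highest. Plod1 (31.1 ± 5.59), Loxl2 (23.1 ± 1.99) and Plod2 (23.0 ± 0.80) followed. Loxl1 (18.7 ± 5.74), Loxl3 (16.2 ± 1.95), Plod3 (16.0 ± 2.65) and P4ha2 (13.7 ± 1.24) came next, and Loxl4 was far below at 0.631 ± 0.0519. Along this order the ranges of neighbours overlapped except between Plod2 and Loxl1 and between P4ha2 and Loxl4. In control trachea (n = 2) P4ha1 and Lox again led with means of 37.7 and 37.3 CPM per kb, and Loxl4 was again lowest at 0.552. Loxl2 (34.5), Loxl1 (26.5) and Plod2 (26.1) came before Plod3 (17.8) and Plod1 (16.8), with P4ha2 (8.12) and Loxl3 (6.46) after them. Because library kits and sample types were not the same in both tables, these 2 orders are set side by side without a test.

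**Figure D1:**
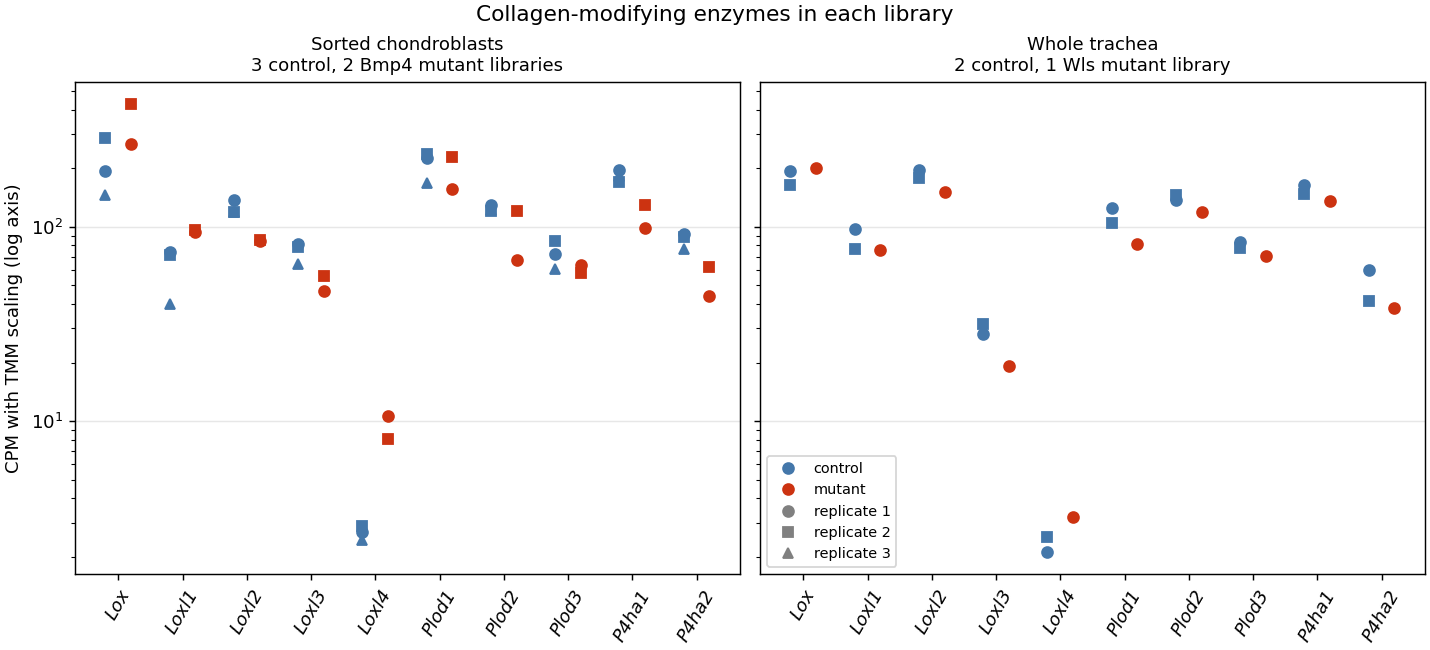
CPM of the 10 enzymes in each library (log axis, 1 point per library), with sorted chondroblasts on the left and whole trachea on the right. Loxl1 and Loxl4 in both Bmp4 mutants sat above all 3 controls, while Loxl2, Loxl3, Plod2, P4ha1 and P4ha2 sat below them.

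Loss of Bmp4 was accompanied by changes in opposite directions among the enzymes. With edgeR's quasi-likelihood test on the deposited counts, Loxl2, Loxl3, P4ha1 and P4ha2 fell and Loxl4 rose at an adjusted p under 0.05, while Lox, Loxl1, Plod1, Plod2 and Plod3 did not pass. These counts of 4 lower and 1 higher stand against a very broad background. Of 21665 genes tested, 54.9% were called, 15.6% lower and 39.3% higher. Among the 10910 genes of at least 10 CPM, which is the class of all the enzymes but Loxl4, 30.7% were called lower and 7.99% higher. The median log2 fold change of the enzymes was -0.33, that of all genes tested 0.53 and that of genes of at least 10 CPM -0.34. The median of the enzymes thus lay next to that of abundant genes, with 7 of the 10 negative. After subtraction of the background, 23.8% of 17166 genes were called, 7.24% lower and 16.5% higher. None of the 10 enzymes was then lower and 1, Loxl1, was higher, with 1 lower and 3 higher at an unadjusted p under 0.05 in edgeR. In all, 6608 of 17166 genes had such an unadjusted p.

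Lox encodes the founding lysyl oxidase, which acts on both collagen and elastin. Its level was 267 and 426 CPM in the mutants, against 194, 286 and 145 CPM in controls. Mutant 1 thus lay below control 2 and the groups overlapped. The log2 fold change was 0.73 ± 0.32 (SE, adjusted p = 0.085), and 1.08 ± 0.32 after subtraction (adjusted p = 0.056). Against the median of abundant genes in the same fit these differences were 1.07 and 1.26. The call depended on the tool and on 1 control, with an adjusted p of 0.037 in DESeq2 and of 0.048 in edgeR without control 2.

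Loxl1, on chromosome 9 (58287738 to 58313186, minus strand, mm10), encodes a lysyl oxidase known for its role in elastic fibres. It measured 94.0 and 96.4 CPM in the mutants, against 73.7, 71.7 and 40.0 CPM in controls. Both mutants were above every control, and control 3 was the lowest library. The log2 fold change was 0.62 ± 0.26 (adjusted p = 0.077) on deposited counts and 0.95 ± 0.27 (adjusted p = 0.048) after subtraction. Loxl1 was the sole enzyme past the threshold after subtraction, and leaving out either mutant, control 1 or control 2 ended that call (adjusted p from 0.072 to 0.13).

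Loxl2 and Loxl3 encode lysyl oxidases of a second subfamily, set apart by scavenger receptor domains, and both are known from skeletal tissue. Loxl2, on chromosome 14 (69609068 to 69695834, plus strand), stood at 84.7 and 84.9 CPM in the mutants, against 137, 119 and 119 CPM in controls. Loxl3, on chromosome 6 (83034173 to 83052562, plus strand), stood at 46.6 and 55.8 CPM in the mutants, against 81.1, 78.4 and 64.4 CPM in controls. For both genes each mutant was below each control. Loxl2 fell by 0.56 ± 0.14 on the log2 scale (adjusted p = 0.0147) and Loxl3 by 0.54 ± 0.17 (adjusted p = 0.0291). In the rescaled fit after subtraction the values were -0.28 (adjusted p = 0.18) and -0.30 (adjusted p = 0.23), and neither passed. At the scaling of the deposited counts, subtraction itself lowered the mutants, to 78.9 and 80.9 CPM for Loxl2 and to 41.7 and 52.4 CPM for Loxl3. The smaller falls thus came with the rescaling. Relative to the median of abundant genes, Loxl2 differed by -0.22 and Loxl3 by -0.21 on deposited counts, and by -0.10 and -0.12 after subtraction. An exon of Loxl3 overlaps Htra2 on the opposite strand, and the strand setting of the counting is not given in the sources used here. Htra2 itself showed a log2 fold change of -0.18 (adjusted p = 0.43).

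Loxl4, on chromosome 19 (42593982 to 42612813, minus strand), is the other member of that subfamily and was the rarest of the 10 transcripts. It measured 10.6 and 8.04 CPM in the mutants, against 2.68, 2.87 and 2.43 CPM in controls. Both mutants stood well above the controls, whose values lay close together. The log2 fold change was 1.81 ± 0.42 (adjusted p = 0.0098). The expected background supplied 42.5% and 38.9% of the counts of Loxl4 in the mutants. At the scaling of the deposited counts, the levels after subtraction were 6.09 and 4.92 CPM, and their mean was 2.08 times that of the controls. The log2 fold change of the rescaled fit after subtraction was 1.42 ± 0.49 (adjusted p = 0.085), so the direction was kept and the call was not. In the other enzymes the background supplied 0.83% to 15.2% of the mutant counts.

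Within the lysyl oxidase family the shares of some members differed between the groups. Shares in a family are tied to each other, so a larger share of Lox lowers the rest. How often shares in other gene families separate the groups was not computed. Shares of the family, taken per kb of exon inside each library, do not depend on how libraries are scaled. Loxl2 made up 13.9% and 10.6% of the family in the mutants and 23.8%, 18.1% and 27.8% in the controls. Loxl3 made up 8.99% and 8.19% in the mutants and 16.5%, 14.0% and 17.7% in the controls. Lox made up 49.6% and 60.2% in the mutants and 38.1%, 49.4% and 38.5% in the controls, so that mutant 1 and control 2 were almost level. Shares of Loxl1 overlapped, at 25.3% and 19.7% against 15.3% to 21.0%. Subtracting the background moved the share of Lox to 51.0% and 61.2% and left the order of the libraries as it was. The share of Loxl4, 2.23% and 1.29%, was above the 0.561% to 0.730% of the controls, and after subtraction it was 1.35% and 0.808% against 0.559% to 0.727%.

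**Figure D2:**
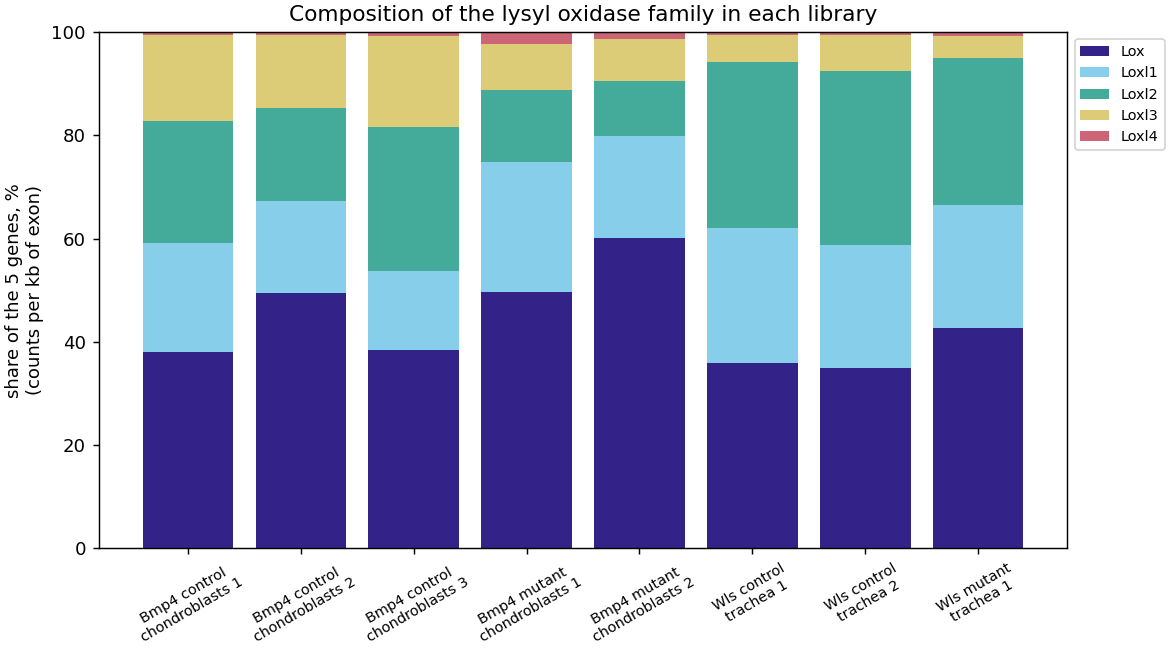
Share of each lysyl oxidase in the sum of the 5 genes per kb of exon (y axis, %), 1 bar per library. Loxl2 and Loxl3 took smaller shares in both Bmp4 mutants than in their 3 controls, and the Wls mutant trachea had a larger Lox share, 42.8%, than its controls, 35.9% and 34.9%.

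The lysyl hydroxylases showed no change past the threshold in the chondroblasts. Plod1 (chromosome 4, 147909753 to 147936767, minus strand) encodes the enzyme for helical lysines, and measured 156 and 228 CPM in the mutants, against 226, 237 and 167 CPM in controls, with overlap. Its log2 fold change was -0.13 ± 0.23 (adjusted p = 0.64), and 0.18 (adjusted p = 0.59) in the rescaled fit after subtraction, where its sign turned. Plod2 (chromosome 9, 92542223 to 92608428, plus strand) encodes the enzyme for telopeptide lysines at the chain ends, and measured 67.0 and 120.1 CPM against 129, 121 and 122 CPM. Mutant 1 was far below the controls and mutant 2 just under the lowest of them, so the 2 mutants differed more from each other than the controls did. The log2 fold change was -0.40 ± 0.24 (adjusted p = 0.19), and -0.12 (adjusted p = 0.75) after subtraction. On deposited counts it was -0.89 (adjusted p = 0.0242) without mutant 2 and -0.06 without mutant 1. Plod3 (chromosome 5, 136987019 to 136996648, plus strand) encodes an enzyme that also adds sugars to hydroxylysine. It measured 63.8 and 57.8 CPM against 72.1, 84.2 and 60.2 CPM, with overlap, and its log2 fold change was -0.25 ± 0.18 (adjusted p = 0.27), and 0.02 (adjusted p = 0.94) after subtraction. Exons of Plod3 overlap Znhit1 on the opposite strand, whose own log2 fold change was -0.54 (adjusted p = 0.076).

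The prolyl 4-hydroxylase subunits fell together on the deposited counts. P4ha1 (chromosome 10, 59323296 to 59373304, plus strand) encodes the main catalytic subunit of most cells, and stood at 98.6 and 129.8 CPM in the mutants, against 196, 170.1 and 182 CPM in controls. P4ha2 (chromosome 11, 54100095 to 54131665, plus strand) encodes the second catalytic subunit, prominent in cartilage, and stood at 43.9 and 61.8 CPM in the mutants, against 91.5, 88.0 and 76.8 CPM in controls. Both mutants were below every control for both genes, and mutant 1 was the lower one in each case. P4ha1 fell by 0.68 ± 0.18 on the log2 scale (adjusted p = 0.0146) and P4ha2 by 0.69 ± 0.19 (adjusted p = 0.0175). Against the median of abundant genes the differences were -0.34 and -0.36, and after subtraction -0.18 and -0.31. In the rescaled fit after subtraction the log2 fold changes were -0.36 (adjusted p = 0.16) and -0.49 (adjusted p = 0.12). Here too subtraction itself lowered the mutants, to 94.2 and 126.7 CPM for P4ha1 and to 37.2 and 57.2 CPM for P4ha2. The ratio of P4ha1 to P4ha2 per kb was 3.41 and 3.19 in the mutants and 2.93 to 3.59 in the controls. After subtraction it was 3.84 and 3.36, so mutant 1 then lay above the controls.

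Expression of P4ha1 and P4ha2 is known to respond to low oxygen. Their promoters are shown because both genes fell on the deposited counts, though neither passed after subtraction. Whether oxygen had a part in these values was not tested. The capitals mark each match to the core of the hypoxia response element, searched as ACGTG and GCGTG and, for the other strand, as CACGT and CACGC, which can overlap each other. The 250 bases before the RefSeq start are printed 5′ to 3′ on the strand of the gene, from RefSeq on GRCm38.p6 (the build also called mm10), at chr10:59323046-59323295 (+) for P4ha1 and chr11:54100674-54100923 (+) for P4ha2, neither of which lies in an annotated exon.
P4ha1: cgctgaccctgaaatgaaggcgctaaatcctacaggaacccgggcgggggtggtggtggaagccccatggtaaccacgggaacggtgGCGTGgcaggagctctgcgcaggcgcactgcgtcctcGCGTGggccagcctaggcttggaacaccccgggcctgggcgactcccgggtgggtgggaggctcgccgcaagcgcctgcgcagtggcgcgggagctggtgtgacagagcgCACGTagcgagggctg
P4ha2: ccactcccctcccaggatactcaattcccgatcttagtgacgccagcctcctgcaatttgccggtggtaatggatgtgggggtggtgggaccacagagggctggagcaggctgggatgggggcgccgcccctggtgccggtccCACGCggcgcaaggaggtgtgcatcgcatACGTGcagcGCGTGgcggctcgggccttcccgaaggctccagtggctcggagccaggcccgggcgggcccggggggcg
Each of these windows held 3 matches. The annotated span of P4ha2 given above starts at 54100095, so its window lies inside that span and follows a later RefSeq start. The window of P4ha1 ends right before its annotated span, which starts at 59323296. RefSeq windows were found for 5 of the 10 members, and Plod3 held 4 matches and Plod1 and Loxl4 1 each. At least 1 match was present in 38.6% of 27025 genes and at least 3 in 6.69%. A match is a description of the letters and not evidence of a bound site.

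Of 18 hypoxia and glycolysis genes in the chondroblasts, 10 fell and 2 rose on the deposited counts, with a median log2 fold change of -0.84, beside 30.7% lower, 7.99% higher and a median of -0.34 among all genes of at least 10 CPM. Ldha, lactate dehydrogenase, fell by 1.38 (adjusted p = 0.0034) and the glycolytic enzyme Eno1 by 1.33 (adjusted p = 0.0033), while Car9, a carbonic anhydrase, rose by 2.33 (adjusted p = 0.0060) and Pfkp by 0.87 (adjusted p = 0.0135). After subtraction Ldha had -1.02 (adjusted p = 0.0203), Eno1 -0.99 (adjusted p = 0.0167), Car9 2.33 (adjusted p = 0.0266) and Pfkp 0.62 (adjusted p = 0.12). After subtraction 5 of the 18 were lower and 1 was higher, with a median of -0.59, beside 963 lower of 10831 genes of at least 10 CPM and a median of -0.18. Without mutant 1, 5 of the 12 calls were lost, among them Car9 and Pfkp, while those of Ldha and Eno1 were kept. In the trachea none of the 18 fell and Egln3, an oxygen-sensing prolyl hydroxylase, rose by 0.76 (adjusted p = 0.0014, edgeR). P4ha1 and P4ha2 in the trachea did not pass, with values given with the other tracheal results.

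The number of enzymes called in the chondroblasts rested on mutant 1. Without it no enzyme passed in edgeR (3 lower and 2 higher at an unadjusted p under 0.05), and 17.2% of genes were called; the log2 fold changes were then -0.57 for Loxl2, -0.43 for Loxl3, 1.58 for Loxl4, -0.51 for P4ha1 and -0.48 for P4ha2. All 5 kept the direction found with both mutants. Without mutant 2, 5 enzymes were lower and 1 higher, beside 15.2% and 22% of all genes. Without control 1, 2 were lower (10.7% of all genes), as Loxl2 (adjusted p = 0.058) and Loxl3 (adjusted p = 0.087) were lost, and without control 2, 2 were lower (10.7% of all genes), as Loxl3 (adjusted p = 0.081) and P4ha2 (adjusted p = 0.054) were lost. By plain range, 5 enzymes had both mutants below all controls, 2 had both above and 3 overlapped. Of all genes tested 25.6% lay below in that sense and 48.2% above, and of genes of at least 10 CPM 48.8% and 13.4%.

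**Figure D3:**
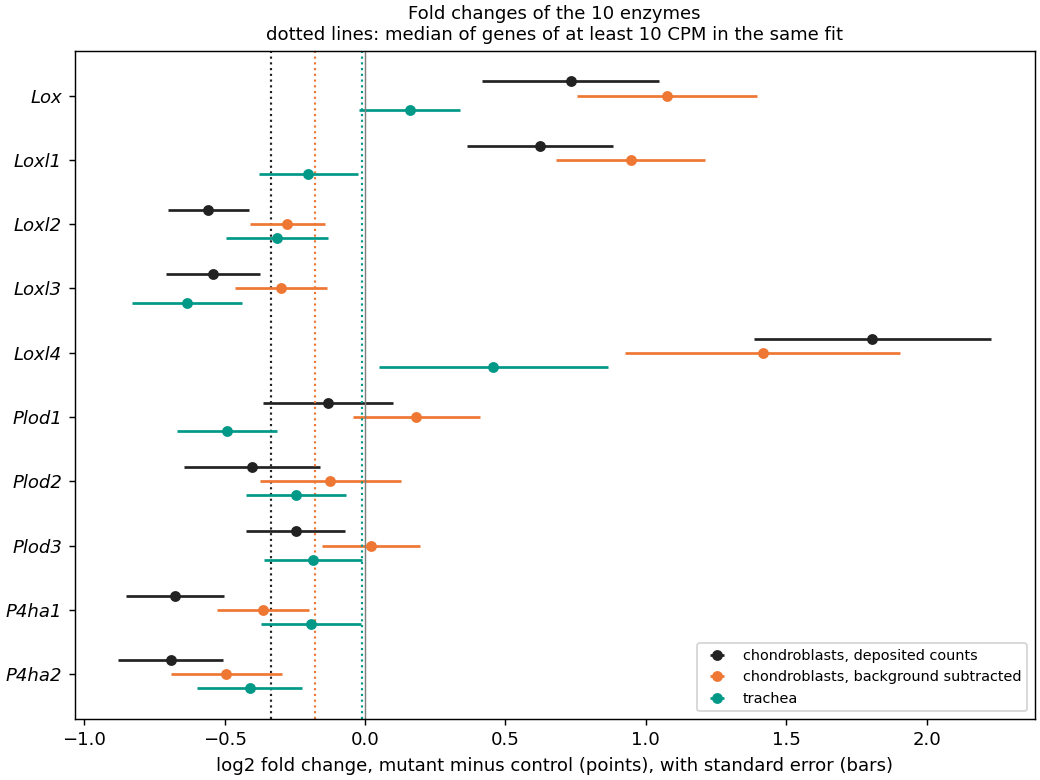
Log2 fold change of each enzyme, mutant minus control, with bars for the standard error: chondroblasts on deposited counts, chondroblasts after background subtraction, and trachea. Dotted lines mark the median of genes of at least 10 CPM in each fit; Lox, Loxl1 and Loxl4 lie farthest to the right of the chondroblast medians, with Plod1 and Plod3 nearer to them on the same side, and Loxl3 lies lowest in the trachea.

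In the trachea without epithelial Wls, Loxl3 was the one enzyme past the threshold. It measured 19.2 CPM in the mutant and 28.0 and 31.5 CPM in the controls. The log2 fold change was -0.63 ± 0.20 (adjusted p = 0.037, edgeR), and DESeq2 gave an adjusted p of 0.36. The counts of 1 lower and 0 higher among the 10 compare with 4.27% of 15815 genes called, 2.39% lower and 1.88% higher, and DESeq2 called 1.82% of genes and no enzyme. At an unadjusted p under 0.05, 3 enzymes were lower and 0 higher in edgeR, and 2 were lower in DESeq2. In all, 2255 of 15815 genes had such an unadjusted p in edgeR, and 1110 genes in DESeq2. These tests take the single mutant library to vary like its controls, with 1 residual degree of freedom. Htra2, which overlaps Loxl3, had a log2 fold change of -0.20 in this table.

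The other lysyl oxidases in the trachea stayed closer to the controls. Lox measured 199 CPM in the mutant and 194 and 163 CPM in the controls, with a log2 fold change of 0.16 ± 0.18. Loxl2 measured 150.1 CPM against 196 and 177 CPM, with a log2 fold change of -0.31 ± 0.18 (adjusted p = 0.45). Loxl2 was below both controls by more than the controls differed from each other. On either side, 6 of the 10 enzymes were past the controls by that margin (Loxl2, Loxl3, Loxl4, Plod1, Plod2 and Plod3). The share of all genes past the controls by that margin was not computed, so this count has no background to be read against. Loxl1 measured 76.0 CPM against 97.7 and 77.2 CPM and lay next to the second control. Loxl4 measured 3.20 CPM against 2.13 and 2.52 CPM, a log2 fold change of 0.46 ± 0.41 that did not pass.

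The hydroxylases of the trachea all lay below both controls, and none passed. Plod1 measured 81.0 CPM in the mutant and 124 and 104 CPM in the controls, a log2 fold change of -0.49 ± 0.18 (adjusted p = 0.10). Plod2 measured 119 CPM against 137 and 145 CPM, and Plod3 70.7 CPM against 83.0 and 77.8 CPM. P4ha1 measured 136 CPM against 164 and 146 CPM, and P4ha2 38.1 CPM against 60.1 and 41.3 CPM. The values of Plod2, Plod3, P4ha1 and P4ha2 did not pass, with log2 fold changes of -0.25, -0.18, -0.19 and -0.41. As one or the other control was left out, the P4ha2 value ranged from -0.66 to -0.10 and the Plod1 value from -0.62 to -0.35. In all, 8 of the 10 enzymes lay below both tracheal controls and 2, Lox and Loxl4, above both. The corresponding shares were 37.6% and 36.9% of all genes tested, and 38.6% and 37% of genes of at least 10 CPM. The median log2 fold change of the 10 was -0.22, and that of all genes tested was -0.01.

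Ratios between enzymes inside a library set Lox and Loxl1 against the others without any scaling. These pairs were chosen after the values were seen and carry no test. The share of other gene pairs that separate the groups was not computed, so the ratios have no background to be read against. Lox to Loxl2 per kb was 3.57 and 5.67 in the Bmp4 mutants, against 1.60, 2.73 and 1.39 in controls. Lox to P4ha1 was 2.33 and 2.83 against 0.852, 1.45 and 0.689. Loxl1 to Loxl2 was 1.82 and 1.86 against 0.880, 0.991 and 0.552. For these 3 ratios both mutants lay above all controls, and after subtraction they still did, at 3.75 and 5.91, 2.39 and 2.87, and 1.88 and 1.90. In the Wls mutant trachea Lox to Loxl2 was 1.50 against 1.12 and 1.04, and Lox to P4ha1 was 1.26 against 1.02 and 0.959. Loxl1 to Loxl2 in the trachea was 0.830 against 0.818 and 0.713, near the higher control. Loxl3 to Loxl2 was 0.646 and 0.772 in the Bmp4 mutants, inside the 0.637 to 0.776 of the controls, and 0.620 and 0.761 after subtraction, with mutant 1 then below them. In the trachea it was 0.150 in the Wls mutant against 0.168 and 0.208. The sum of all 10 enzymes per kb was 193 and 258 CPM in the Bmp4 mutants and 196 to 253 CPM in the controls. After subtraction, at the scaling of the deposited counts, it was 183 and 251 CPM in the mutants. Mutant 2 thus lay within or above the controls and mutant 1 below them.

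**Figure D4:**
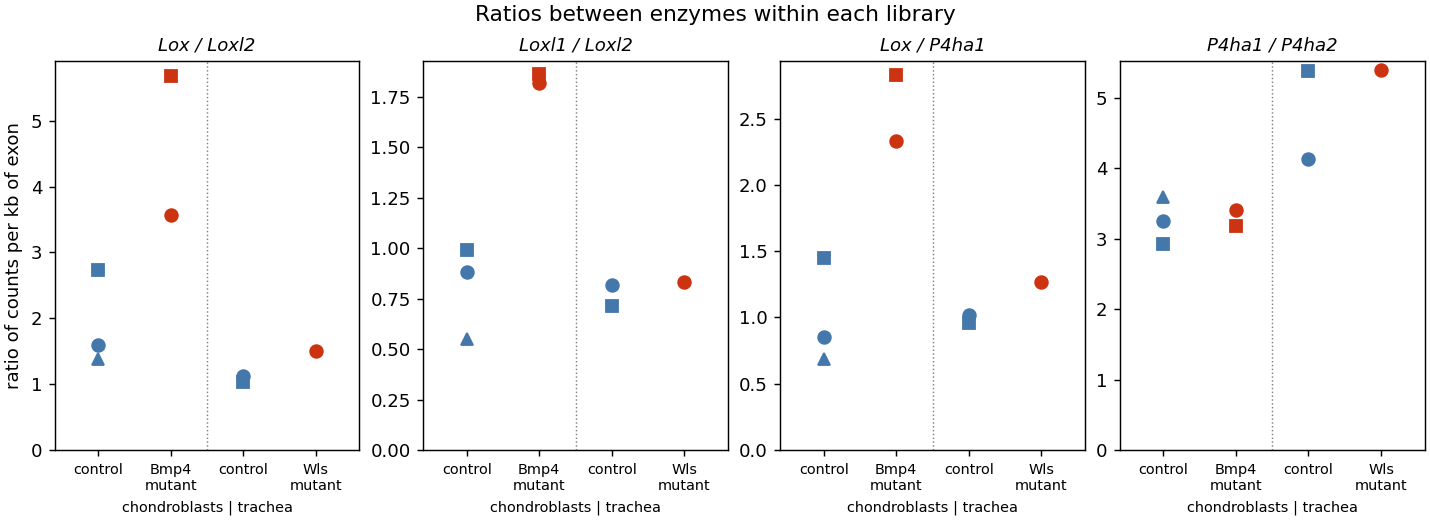
Ratios of counts per kb of exon between 2 enzymes inside each library (y axis; red mutants, blue controls; marker shape gives the replicate), in 4 panels. Lox to Loxl2, Loxl1 to Loxl2 and Lox to P4ha1 were higher in both Bmp4 mutants than in the 3 controls. In the same mutants P4ha1 to P4ha2 on these deposited counts lay within the range of the controls. The pairs were chosen after the values were seen.

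The wider collagen pathway was read from 41 further genes in 6 lists. In the chondroblasts 4 of 41 fell and 6 rose on the deposited counts, with a median log2 fold change of -0.02. Over all genes 15.6% were lower and 39.3% higher, with a median of 0.53. Among genes of at least 10 CPM 30.7% were lower and 7.99% higher, with a median of -0.34. The list holds genes above and below 10 CPM. After subtraction 1 of 40 fell and 4 rose, beside 7.24% and 16.5% of all genes. Of 10831 genes of at least 10 CPM, 963 were then lower and 476 higher. In the trachea 3 of 39 fell and none rose, beside 2.39% and 1.88%. Among 7 other prolyl hydroxylase subunits and partners, Leprel2 (P3h3), a prolyl 3-hydroxylase family member, fell in the chondroblasts by 0.79 (adjusted p = 0.0070), with -0.57 (adjusted p = 0.059) after subtraction, and none passed in the trachea. P4hb, the beta subunit that P4ha1 and P4ha2 need, was at 1181 and 1453 CPM against 1477 to 1756 CPM and did not pass. Among 8 chaperones Ppib, cyclophilin B, fell by 0.47 (adjusted p = 0.0295) in the chondroblasts, with -0.16 (adjusted p = 0.42) after subtraction, and Serpinh1, the collagen chaperone HSP47, did not pass. Of 2 collagen glycosyltransferases Colgalt2 rose by 1.78 (adjusted p = 0.0197) above controls of 1.47 to 2.36 CPM, and after subtraction it had 0.86 (adjusted p = 0.34). The 8 genes for cofactor supply and lysyl oxidase partners, among them the copper transporter Atp7a and the elastic fibre protein Fbln5, had no member past the threshold in either table.

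The procollagen proteinases held the one pathway gene that fell in both tables, Bmp1. Its product removes the carboxy-terminal propeptide of procollagen and also activates pro-lysyl oxidase. Bmp1 measured 77.3 and 76.0 CPM in the Bmp4 mutants and 171, 155 and 147 CPM in the controls. It fell by 1.04 ± 0.15 on the log2 scale (adjusted p = 0.0033) and by 0.83 after subtraction (adjusted p = 0.0167), with -0.67 (adjusted p = 0.064) when only genes above 10 times the background were kept. In the Wls mutant trachea Bmp1 measured 211 CPM against 347 and 424 CPM and fell by 0.87 ± 0.20 (adjusted p = 0.0015). Adamts2, an amino-terminal propeptidase, rose in the chondroblasts by 1.48 (adjusted p = 0.0079), Adamts3 by 0.78 (adjusted p = 0.0359) and Tll2, at 17.4 and 7.36 CPM against 0, 0.199 and 0 CPM, also rose. After subtraction Adamts2 had 1.52 (adjusted p = 0.0304) and Tll2 still passed (adjusted p = 0.0264), while Adamts3 had 0.77 (adjusted p = 0.10). Pcolce2, a proteinase enhancer, fell in the trachea by 1.35 (adjusted p = 0.0132 in edgeR and 0.22 in DESeq2). In the list of 8 export genes, Sec13 fell by 0.63 (adjusted p = 0.0117), and the transcription factor gene Creb3l1 rose by 0.70 (adjusted p = 0.0252) in the chondroblasts. After subtraction Sec13 had -0.29 (adjusted p = 0.17) and Creb3l1 0.98 (adjusted p = 0.0225), and Sec24d, a coat protein of transport vesicles, also passed at 0.63 (adjusted p = 0.0492). Mia2 was also called higher there, at 1.90 and 1.76 CPM against 0 CPM in all 3 controls, and it did not exceed the background limit. Creb3l2, a regulator of the secretory pathway in cartilage, fell in the trachea by 0.90 (adjusted p = 1.6e-04) and had -0.60 (adjusted p = 0.054) in the chondroblasts. Of the 10 pathway calls in the chondroblasts, Bmp1 alone remained without mutant 1 (-1.07, adjusted p = 0.039), and 9 were lost. The call of Adamts3 ended when any 1 of the 5 libraries was left out, and those of Ppib and Creb3l1 for 4 of the 5.

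Among the substrates in the chondroblasts, Col2a1 fell and Col3a1 rose. Col2a1, the main fibrillar collagen of cartilage, measured 91.3 and 289 CPM in the Bmp4 mutants and 1526, 882 and 838 CPM in the controls. It fell by 2.51 ± 0.53 on the log2 scale (adjusted p = 0.0068), by 2.22 after subtraction (adjusted p = 0.037), and by 1.57 in the Wls mutant trachea (adjusted p = 7.2e-09). Col3a1, a fibrillar collagen of soft connective tissue, rose in the chondroblasts by 0.77 (adjusted p = 0.0445), and by 1.13 (adjusted p = 0.0238) after subtraction. Col1a1 had 0.59 (adjusted p = 0.10) on deposited counts and rose by 0.96 (adjusted p = 0.044) after subtraction. Col5a2 had 0.46 (adjusted p = 0.083) and rose by 0.79 (adjusted p = 0.029) after subtraction. In the trachea Col11a2, a minor cartilage collagen, fell by 2.15 (adjusted p = 1.8e-16) and Eln, elastin, by 1.02 (adjusted p = 6.5e-04). On deposited counts, the call of Col3a1 was lost when any 1 of the 5 libraries was left out, and that of Col2a1 never. In edgeR, Col2a1 did not pass after subtraction on genes above 5 times the background (adjusted p = 0.072). With the replicate block on deposited counts it did not pass either (adjusted p = 0.055). Of 9 substrates, 1 fell and 1 rose in the chondroblasts, with a median log2 fold change of 0.15. After subtraction 1 fell and 3 rose, with a median of 0.51. In the trachea 3 fell, with a median of -0.33. Among genes of at least 10 CPM, 30.7% were lower and 7.99% higher in the chondroblasts (median -0.34). After subtraction 963 were lower and 476 higher of 10831 such genes (median -0.18). The shares in the trachea were 2.91% and 1.73% (median -0.01).

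**Figure D5:**
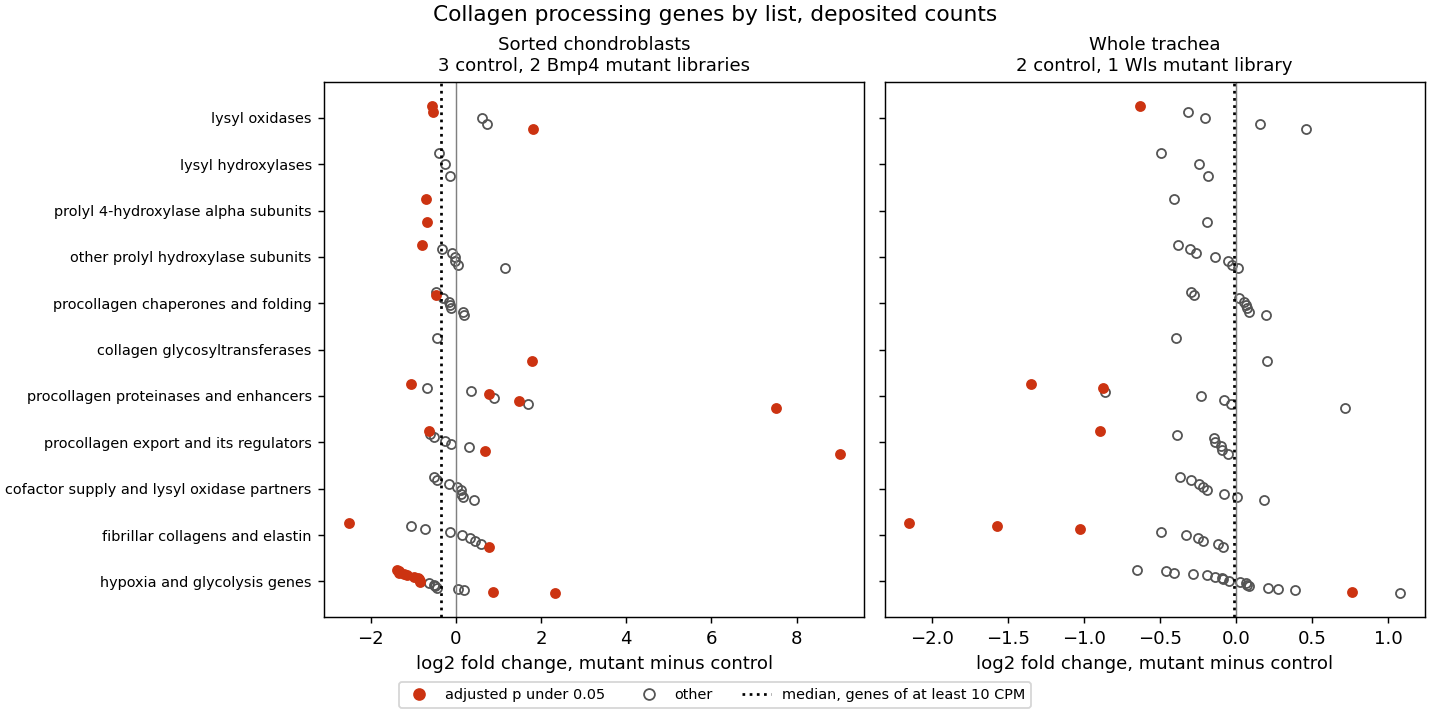
Log2 fold change, mutant minus control, of each gene in the enzyme families, the pathway lists, the substrates and the hypoxia list, with filled points for an adjusted p under 0.05 in edgeR on deposited counts. The dotted line marks the median of genes of at least 10 CPM; the 2 points beyond 6 in the chondroblasts are Tll2 and Mia2, which were at or near 0 CPM in the controls.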

How the data were processed

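The authors deposited whole-number counts per gene symbol, per the file headers, with sorted cells and tracheas in separate tables, and these were analysed unchanged. Bowtie2, Cufflinks and DESeq are listed with the build mm10, and Trim Galore for sorted cells, per the submitters' processing notes. The counter, annotation and strand setting were not given in the sources used here. Per the labels' protocols, sorted cells were amplified with SMART-Seq v4 and tracheas with Ovation v2, both followed by Nextera XT.

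Counts were tested with edgeR 4.0.16 (R 4.3.3): TMM scaling, the default expression filter, a quasi-likelihood test and Benjamini-Hochberg adjustment over all genes tested, with a threshold of 0.05. Every adjusted p comes from it unless DESeq2 1.42.0 is named. Residual degrees of freedom were 3 (chondroblasts) and 1 (trachea). Printed CPM of single genes carry the TMM factors. Background was estimated per library, per kb of exon, from 4328 genes with a mean control level under 0.05 CPM. Exon lengths came from GENCODE M21, and 361 of 23478 symbols had no length. The background was subtracted for genes above 2 times it, and library sizes and TMM factors were then computed anew. Replicates differed by 24.5 to 193 times the noise of counting (chi-square over its degrees of freedom), so all were kept. The model scripts were checked on simulated data.

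All members were reported; the driver of Cre in the Bmp4 mutants is not reported here. Of the lists, every count is given, with the genes past the threshold named, or the 2 with the greatest change where many pass. The members and lists were chosen with earlier results of these data known. Libraries were left out 1 at a time, and scaling, filter, background, tool and replicate block were varied.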

Additional observations from a re-analysis of the deposited data

How the results depend on the processing

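In the chondroblasts 4 enzymes were lower and 1 higher. Size factors of the RLE kind, no low-count filter and leaving out the globin genes kept these counts, while DESeq2 gave 4 and 2, and TMM from genes above background 3 and 2. Background subtraction gave 0 lower and 1 higher in edgeR. After it, on genes above 5 or above 10 times the background, there were 0 and 0. At an unadjusted p under 0.05 these fits had 0 lower and 3 or 2 higher. In all, 3823 of 13515 and 2808 of 11549 genes had such an unadjusted p. The globin setting, these limits and the subtracted fit with a block were chosen after seeing the data. All genes called numbered 11888 on deposited counts, 4080 after subtraction, and 993 and 77 at these limits. Leaving out each library in turn gave 0 to 5 lower and 0 to 2 higher, subtracted fits included. Ppib turned from -0.47 to 0.0013 in the fit above 10 times the background, and the cause was not tested.

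The labels do not say whether replicate numbers pair the samples. Deviations of same-numbered mutants and controls correlated at -0.17 and -0.11. With 2 mutants their deviations mirror each other, so these values cannot tell whether samples were paired. With the replicate block 0 enzymes were lower and 0 higher (4 lower and 1 higher at an unadjusted p under 0.05, edgeR). In all, 4 genes were called and 9833 of 21665 had such an unadjusted p. With subtraction and the block the counts were 0 and 0 (0 lower and 2 higher at an unadjusted p under 0.05), and 3478 of 17166 genes had such an unadjusted p. In the trachea DESeq2 gave 0 lower. Without one tracheal control no test could be made, and the Wls comparison has 1 mutant, so no paired analysis was possible there because the groups share a single number. For Loxl4, 42.5% and 38.9% of the mutant counts were expected background.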

Other observations

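The genes whose pattern over the 8 libraries was most like that of Loxl4 were Herc3, Pclo and Atp8a1, with root mean square differences of 0.16, 0.20 and 0.20 in log2 CPM centred on the controls of each table. For P4ha2 they were Homer3, Gpc3 and Sphk2, at 0.11, 0.11 and 0.12. Both searches ran over 9681 genes of at least 10 CPM in each table, and mutants and controls of the chondroblasts differ in depth and background, so the likeness is a description without a test. Homer3 had log2 fold changes of -0.75 in the chondroblasts and -0.37 in the trachea, next to -0.69 and -0.41 for P4ha2. Gpc3, a glypican of the cell surface, had -0.58 and -0.22.

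Shares of the lysyl hydroxylases overlapped between chondroblast groups for Plod2 and were higher for Plod1 in both mutants. How often shares in other gene families separate the groups was not computed. Plod1 made up 46.4% and 49.0% of the 3 lysyl hydroxylases per kb in the Bmp4 mutants and 45.6%, 46.1% and 40.8% in the controls. Plod2 made up 25.1% and 32.4% against 32.6%, 29.4% and 37.3%. In the trachea Plod1 made up 24.1% in the mutant and 29.6% and 25.8% in the controls.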
